A study of Mus musculus with 4 samples.

Results

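Keratins build the intermediate filaments of epithelial cells. Each filament is made from an acidic type I keratin and a basic type II keratin in equal parts, and the pairs in use change with the state of the cell. Krt5 and Krt14 are the pair of the basal epidermis, Krt1 and Krt10 that of the cells that leave the basal layer, and other sets mark the sheaths of the hair follicle, the hair shaft and simple epithelia. All rows of the expression table whose symbol is Krt followed by a number and at most 1 letter were taken, which left out the keratin-associated proteins (Krtap) of the hair. This gave 52 keratin genes, 28 of type I and 24 of type II, of 23361 genes in the table.

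RNA was sequenced from epithelial cells of hair pegs, the downgrowths that form hair follicles in embryonic mouse back skin, in 2 Nfatc1+ and 2 Shh+ libraries. The embryos carried Nfatc1-CreER or Shh-CreER, a recombinase active in cells that express that gene, together with Rosa-stop-tdTomato, a red reporter that the recombinase switches on, and K14-H2BGFP, a nuclear GFP driven by the Krt14 promoter. Tamoxifen, which activates the recombinase, was given at E15.5 and the cells that carried both colours were sorted at E17.5, so that the Krt14 promoter helped to choose the cells of both groups. For Nfatc1+ cells, 0.25% trypsin acted on whole skin for 16 min at 37°C, whereas for Shh+ cells the epidermis was first taken off with dispase (0.4 mg/ml, 1 h) and the dermis with its pegs was then trypsinised for 10 min. Each population thus had its own digestion, and for every keratin below the effect of population and that of digestion cannot be told apart. The sources used here name no embryo or litter for a library, so the p-values are set against the spread between the sequenced libraries alone, which may be technical.

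The marker genes matched the labels. Nfatc1 was at 112 and 116 FPKM in Nfatc1+ libraries and at 25.3 and 20.1 FPKM in Shh+ libraries, and Shh was at 10.5 and 11.7 FPKM against 144 and 145 FPKM. FPKM is the number of fragments on a transcript divided by its length and by the mapped fragments of the library, and it was compared between genes as well as between libraries because it is set per length. The absolute depth is unknown. Relative depth, read from what 1 fragment was worth among genes below 0.3 FPKM, was 0.927 in Nfatc1+ replicate 2 and Shh+ replicate 1 and 0.575 in Shh+ replicate 2 when Nfatc1+ replicate 1 was set to 1, so low values were least precise in Shh+ replicate 2. The fragments given for low keratins are the smallest whole numbers that fit these steps, so the true numbers can be multiples of them. A fit was taken within 0.06 of a whole number, or within a margin that grew in proportion for larger numbers.

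Most keratin genes lie in 2 clusters. On chromosome 11 of GRCm38 the table held 27 keratins, all of type I, and on chromosome 15 it held 23 of type II together with the type I gene Krt18. The bases just before the transcription start of 6 keratins that carry the comparisons below are shown, from RefSeq (GRCm38.p6). They are Krt5, the most abundant keratin of both populations, Krt10 and its neighbours Krt28 and Krt27 on chromosome 11, which differed in opposite directions, and Krt73 and Krt71, the tested type II genes of the inner root sheath. All 6 genes are on the minus strand and each window holds the 150 bases before the start, which were read at chr15:101712906-101713055 for Krt5, chr11:99389365-99389514 for Krt10, chr11:99374904-99375053 for Krt28, chr11:99351119-99351268 for Krt27, chr15:101802361-101802510 for Krt73 and chr15:101743098-101743247 for Krt71. Capitals mark 6 bases that end in ATAAA, the core of a TATA box, within 50 bases of the start.
Krt5: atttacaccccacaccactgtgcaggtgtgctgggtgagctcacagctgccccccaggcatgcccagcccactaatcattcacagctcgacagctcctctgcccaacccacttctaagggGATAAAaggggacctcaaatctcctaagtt
Krt10: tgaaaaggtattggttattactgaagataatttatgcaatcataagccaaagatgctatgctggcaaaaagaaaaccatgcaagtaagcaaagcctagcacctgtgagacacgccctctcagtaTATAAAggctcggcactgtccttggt
Krt28: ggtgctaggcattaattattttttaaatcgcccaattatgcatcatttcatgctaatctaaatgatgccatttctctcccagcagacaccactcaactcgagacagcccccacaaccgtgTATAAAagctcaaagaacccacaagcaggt
Krt27: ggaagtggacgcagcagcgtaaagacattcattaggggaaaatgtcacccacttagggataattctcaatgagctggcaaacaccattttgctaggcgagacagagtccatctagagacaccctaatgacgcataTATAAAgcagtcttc
Krt73: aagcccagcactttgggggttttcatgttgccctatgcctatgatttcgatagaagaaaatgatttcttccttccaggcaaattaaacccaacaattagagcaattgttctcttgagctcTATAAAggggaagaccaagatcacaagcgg
Krt71: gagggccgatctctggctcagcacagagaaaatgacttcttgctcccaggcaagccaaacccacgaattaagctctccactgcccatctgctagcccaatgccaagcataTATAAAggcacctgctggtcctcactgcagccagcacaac

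The box began 30 bases before the start in Krt5, Krt28 and Krt73, 26 bases in Krt10, 40 bases in Krt71 and 15 bases in Krt27. Krt5 had GATAAA and the others had TATAAA. A RefSeq window within 100 bases of the annotated gene start was found for 32 keratins. Searched on both strands, the letters TATAAA were in the last 50 bases before the start of 15 of these (46.9%), against 3.5% of all 32851 windows, and ATAAA, which TATAAA contains, was in 22 (68.8%) against 10.2%. The 32851 windows were not limited by their distance to a gene start, so these sets were not chosen alike. Among the keratins with a box were genes higher in Shh+ cells and genes higher in Nfatc1+ cells, and Krt79, with one of the larger differences, had none. The letters CTTTGAA, one form of the site that Lef1 and its relatives bind, were in the 250 bases before the start of 5 keratins (15.6%) against 4.46% of all windows, and all 5 were hair shaft keratins (Krt31, Krt32, Krt33b, Krt34 and Krt39). CTTTGAT was in 1 keratin window (3.12% against 3.21%), the AP-1 letters TGANTCA in 1 (3.12% against 6.75%) and the AP-2 letters GCCNNNGGC in 3 (9.38% against 13.7%), likewise on both strands. These matches describe the letters only.

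Keratins were among the most abundant transcripts of both populations and differed between them in both directions. Of 52 keratins, 24 reached a mean of 0.5 FPKM over the libraries and were tested with limma on log2(FPKM + 0.5), together with all 12750 genes at that level, and a gene was called where the p-value adjusted by Benjamini-Hochberg was under 0.05. A positive log2 fold change means more in Shh+ cells, and on this scale the change of low genes is understated. Called higher in Shh+ cells were 7 keratins, Krt1, Krt6a, Krt7, Krt10, Krt16, Krt27 and Krt33a, beside 14.9% of all genes tested. Called higher in Nfatc1+ cells were 10, Krt5, Krt8, Krt15, Krt20, Krt28, Krt35, Krt71, Krt73, Krt79 and Krt80, beside 16.6% of all genes tested. Krt14, Krt17, Krt18, Krt19, Krt32, Krt42 and Krt77 were not called. In bulk libraries, fewer cells of a type and less RNA per cell cannot be told apart.

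At a difference of at least 2-fold on that scale, the counts were 3 keratins for Shh+ cells and 8 for Nfatc1+ cells, beside 4.7% and 5.72% of all genes tested. For 23 of the 24 tested keratins, all but Krt19, the libraries of one group lay wholly above those of the other, beside 70.7% of all genes tested. Their median log2 fold change was −0.29 against 0.0018 for all genes tested. The count of 7 fell to 4 without Nfatc1+ replicate 1 and to 4 without Nfatc1+ replicate 2, and was 6 without either Shh+ library, whereas the count of 10 was 8 without either Shh+ library, 9 without Nfatc1+ replicate 2 and 10 without Nfatc1+ replicate 1. Without any of these libraries, fewer of all genes tested were called as well, in both directions. Among genes at 10 FPKM or more, the 10 keratins had a median log2 difference of 0.12 between the Nfatc1+ replicates, 0.14 between the Shh+ replicates and 0.82 between the groups. For all 7257 genes at that level these medians were 0.077, 0.088 and 0.19. The tested keratins passed the filter on both groups together, and for 6 of them (Krt6a, Krt20, Krt33a, Krt35, Krt42 and Krt71) the mean of 1 group alone was below 0.5 FPKM, so that they were tested only because the other group was higher.

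**Figure D1:**
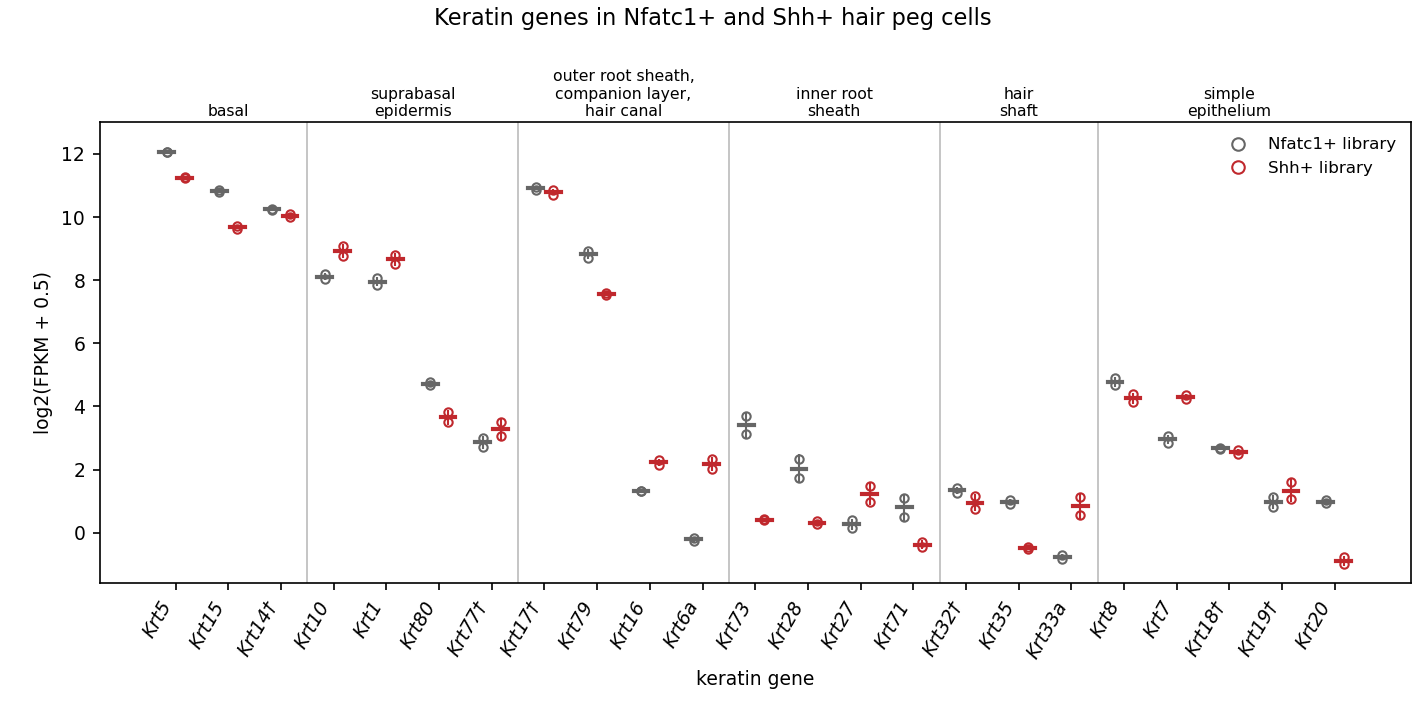
Levels of the 23 tested keratins with an assigned layer, on the log2(FPKM + 0.5) scale, grouped by the layer in which each is best known. Open circles are single libraries (grey, Nfatc1+; red, Shh+), bars are group means and vertical lines are 1 SD over 2 libraries; a dagger marks a gene that was not called. Krt5, Krt15 and Krt79 lie higher in Nfatc1+ libraries, Krt1, Krt10, Krt6a and Krt7 higher in Shh+ libraries, and Krt14 and Krt17 are close in both.

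The keratins of the basal layer differed unequally. Krt5 (chr15:101707070-101712898), the basal type II keratin, was at 4323 and 4317 FPKM in Nfatc1+ libraries and at 2443 and 2415 FPKM in Shh+ libraries, a log2 fold change of −0.83 (SE 0.07, adjusted p = 0.00251). The groups lay far apart, with Nfatc1+ cells 1.78-fold higher, and by FPKM Krt5 had rank 2 among all genes of the table in both Nfatc1+ libraries and ranks 9 and 7 in the Shh+ libraries. Krt15 (chr11:100131758-100135928), a basal type I keratin that is retained in the outer root sheath and the bulge, was at 1867 and 1771 FPKM in Nfatc1+ libraries and at 847 and 795 FPKM in Shh+ libraries. It was 2.21-fold higher in Nfatc1+ cells (log2 fold change −1.15, SE 0.08, adjusted p = 0.00154), again with no overlap.

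Krt14 (chr11:100203162-100207548), the usual type I partner of Krt5, whose promoter drove the GFP of the sort, was at 1232 and 1204 FPKM in Nfatc1+ libraries and at 1030.0 and 1086 FPKM in Shh+ libraries. All Nfatc1+ values lay above the Shh+ values, but the difference was small and was not called (log2 fold change −0.20, SE 0.08, adjusted p = 0.116), and with an intensity trend in the prior variance it was called (adjusted p = 0.0451). The ratio of Krt15 to Krt14 was 1.52 and 1.47 in Nfatc1+ libraries and 0.822 and 0.733 in Shh+ libraries, so that the order of these 2 basal type I genes was turned between the populations. The ratio of Krt5 to Krt14 was 3.51 and 3.58 in Nfatc1+ libraries and 2.37 and 2.22 in Shh+ libraries. Of 8 basal genes that are not keratins, all tested, 6 were called toward Nfatc1+ cells and 1 toward Shh+ cells, beside 16.6% and 14.9% of all genes tested. Their summed level was 858 to 875 FPKM in Nfatc1+ libraries and 492 to 496 FPKM in Shh+ libraries, none was at 0, and its part in the difference of Krt5 and Krt15 was not tested.

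Among the keratins of the outer root sheath, the companion layer and the hair canal, the abundant Krt17 was close in both populations while the scarce Krt6a and Krt16 were higher in Shh+ cells. Krt17 (chr11:100256217-100261029), a type I keratin of the developing skin appendages, was at 1981 and 1874 FPKM in Nfatc1+ libraries and at 1851 and 1679.7 FPKM in Shh+ libraries (log2 fold change −0.13, SE 0.09, adjusted p = 0.336). The lower Nfatc1+ library lay just above the higher Shh+ library. Krt79 (chr15:101929332-101940324), a type II keratin of the cells that form the hair canal, was at 488 and 419 FPKM in Nfatc1+ libraries and at 194 and 184 FPKM in Shh+ libraries. It was 2.40-fold higher in Nfatc1+ cells (log2 fold change −1.26, SE 0.11, adjusted p = 0.00238), without overlap.

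Krt6a (chr15:101689910-101694307), a type II keratin of the companion layer and outer root sheath that is induced in stressed epidermis, was at 0.328 and 0.398 FPKM in Nfatc1+ libraries and at 4.51 and 3.56 FPKM in Shh+ libraries. It was 11.1-fold higher in Shh+ cells by mean FPKM (log2 fold change 2.39, SE 0.13, adjusted p = 0.000857). Krt16, its usual type I partner, was at 2.02 and 1.98 FPKM in Nfatc1+ libraries and at 4.43 and 3.94 FPKM in Shh+ libraries (log2 fold change 0.90, SE 0.09, adjusted p = 0.00338). Both genes were low in every library and the groups did not overlap for either. Krt6a shared 43.6% of its 50-base windows with Krt6b, which was listed above 0 in 1 library only, at 0.0414 FPKM, and Krt16 shared 25.2% of its windows with the pseudogene Gm11597 and 12.4% with Krt14, so the split of reads between these copies is uncertain. Krt75, a companion layer keratin of type II, was below the filter, with 23 and 23 fragments in Nfatc1+ libraries and 5 and 4 in Shh+ libraries.

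Of the suprabasal pair, both members were higher in Shh+ cells. Krt10 (chr11:99385254-99389364), the type I keratin of the spinous layer, was at 261 and 291 FPKM in Nfatc1+ libraries and at 542 and 432 FPKM in Shh+ libraries, 1.76-fold higher (log2 fold change 0.81, SE 0.14, adjusted p = 0.0165). Krt1 (chr15:101845426-101850794), its type II partner, was at 230.3 and 266 FPKM in Nfatc1+ libraries and at 449 and 364 FPKM in Shh+ libraries, 1.64-fold higher (log2 fold change 0.71, SE 0.14, adjusted p = 0.0246). In both genes every Shh+ library lay above every Nfatc1+ library and Shh+ replicate 1 was the highest. The ratio of Krt1 to Krt10 stayed between 0.828 and 0.914 in all libraries, while the ratio of Krt1 to Krt5 was 0.0533 and 0.0617 in Nfatc1+ libraries and 0.184 and 0.151 in Shh+ libraries. The calls depended on single libraries. Krt1 was not called without Nfatc1+ replicate 1 (adjusted p = 0.104), Nfatc1+ replicate 2 (0.0581) or Shh+ replicate 1 (0.077), and Krt10 not without Nfatc1+ replicate 1 (0.0784) or 2 (0.0532).

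Among the other suprabasal keratins, Krt80, a type II keratin of differentiating cells, was at 25.2 and 26.7 FPKM in Nfatc1+ libraries and at 13.6 and 10.8 FPKM in Shh+ libraries, 2.13-fold higher in Nfatc1+ cells (log2 fold change −1.07, SE 0.13, adjusted p = 0.00677). Krt77, also of type II, was at 6.07 and 7.56 FPKM against 10.9 and 7.77 FPKM and was not called (log2 fold change 0.42, SE 0.20, adjusted p = 0.179). The late epidermal keratins Krt2 and Krt78, Krt9, known from palm and sole, and Krt24 were not tested, and none of them exceeded 0.36 FPKM in a library. Of 9 tested genes of differentiated epidermis that are not keratins, 3 were called toward Shh+ cells and 4 toward Nfatc1+ cells, beside 14.9% and 16.6% of all genes tested. Their summed level was 1597 to 1656 FPKM in Nfatc1+ libraries and 953 to 999 FPKM in Shh+ libraries. Of the terminal markers, Lor (loricrin) was at 0.425 and 0.458 FPKM in Nfatc1+ libraries and 11.3 and 5.54 FPKM in Shh+ libraries, and Ivl (involucrin) was at 0 in all but Shh+ replicate 1. Lor was tested only because Shh+ cells were higher. Called with it toward Shh+ cells were Sbsn and Calml3. Called toward Nfatc1+ cells were Krtdap, Dmkn, Lgals7 and Ly6d. Their means were 349, 288, 859 and 93.2 FPKM there and 177, 172, 503 and 37.4 FPKM in Shh+ cells. The part of differentiated cells in the difference of Krt1 and Krt10 was not tested.

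The simple epithelial keratins went both ways. Krt7 (chr15:101411043-101430313), a type II keratin of ducts and glands, was at 6.70 and 7.87 FPKM in Nfatc1+ libraries and at 20.2 and 18.5 FPKM in Shh+ libraries, 2.66-fold higher in Shh+ cells (log2 fold change 1.35, SE 0.11, adjusted p = 0.00217). Krt8 (chr15:101996698-102004482), the type II keratin of simple epithelia and of Merkel cells, was at 25.0 and 29.2 FPKM in Nfatc1+ libraries and at 17.1 and 20.4 FPKM in Shh+ libraries (log2 fold change −0.52, SE 0.13, adjusted p = 0.0433). These groups were closer together than those of Krt7, and the call of Krt8 was lost without any 1 of the libraries, with adjusted p = 0.0757 without Nfatc1+ replicate 1, 0.168 without Nfatc1+ replicate 2, 0.14 without Shh+ replicate 1 and 0.0601 without Shh+ replicate 2. Krt8 also shared 26.9% of its windows with other transcripts, chiefly the pseudogene Krt8-ps.

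Krt18, the type I partner of Krt8, was at 5.97 and 5.76 FPKM in Nfatc1+ libraries and at 5.09 and 5.67 FPKM in Shh+ libraries and was not called (log2 fold change −0.12, SE 0.09, adjusted p = 0.372). The ratio of Krt8 to Krt18 was 4.198 and 5.07 in Nfatc1+ libraries and 3.36 and 3.59 in Shh+ libraries. Krt19, a type I keratin of simple epithelia and the bulge, was at 1.28 and 1.68 FPKM against 2.52 and 1.60 FPKM, the only tested keratin whose libraries overlapped (log2 fold change 0.36, SE 0.21, adjusted p = 0.266). Krt20 (chr11:99428403-99438150), the type I keratin of Merkel cells in skin, was at 1.56 and 1.42 FPKM in Nfatc1+ libraries and at 0 and 0.0845 FPKM in Shh+ libraries, which corresponded to 32 and 27 fragments against 0 and 1. It was called higher in Nfatc1+ cells (log2 fold change −1.88, SE 0.11, adjusted p = 0.000992), and with so few fragments in Shh+ cells this value depends on the pseudocount. Of 7 tested Merkel cell genes that are not keratins, 6 were called, all toward Nfatc1+ cells, beside 16.6% of all genes tested in that direction. Among those called, Atoh1, Isl1 and Insm1 had a Shh+ mean below 0.5 FPKM. They were tested only because Nfatc1+ cells were higher. The list summed to 33.4 to 38.1 FPKM in Nfatc1+ libraries and 2.76 to 4.13 FPKM in Shh+ libraries. Atoh1, which specifies Merkel cells, was at 6.28 and 7.31 FPKM against 0.240 and 0.232 FPKM, and no marker of the list was at 0 in a library. Their part in the differences of Krt20 and Krt8 was not tested.

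**Figure D2:**
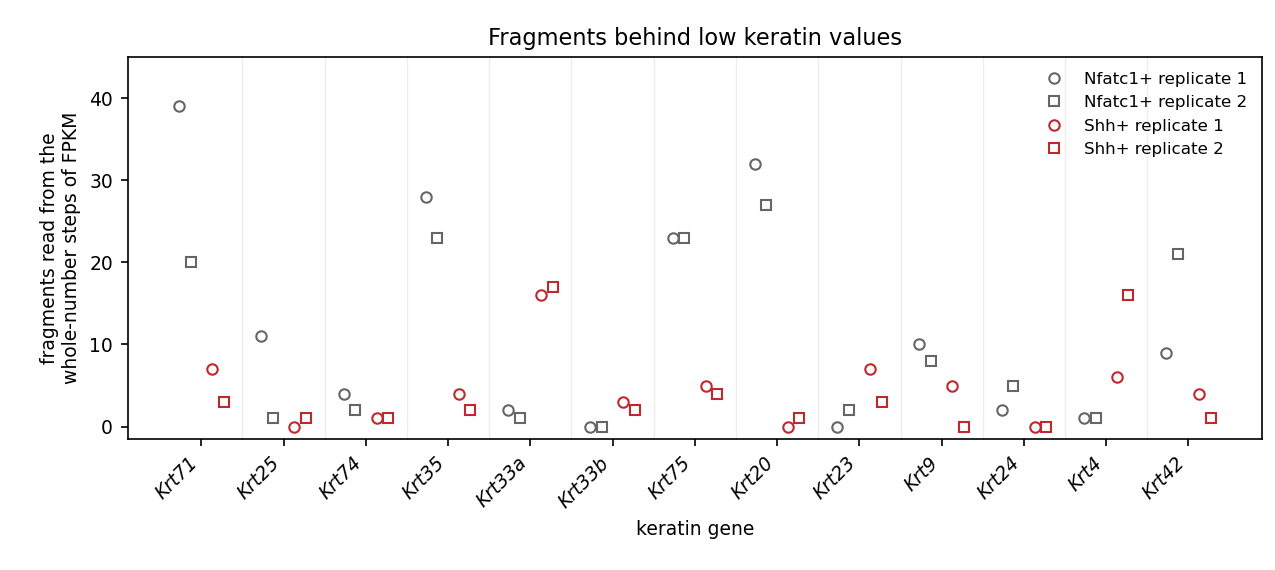
Fragments behind the low keratins, read from the whole-number steps of the FPKM values, for each library (grey, Nfatc1+; red, Shh+; circles, replicate 1; squares, replicate 2). Krt20 has 32 and 27 fragments in Nfatc1+ libraries against 0 and 1 in Shh+ libraries, Krt33a has 2 and 1 against 16 and 17, and Krt25 is read as 11 in 1 Nfatc1+ library and as 0 or 1 in the others. The numbers are the smallest that fit.

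Of the inner root sheath keratins, which appear in the layer that surrounds the growing hair shaft, 8 were in the table and 4 were tested, of which 3 had more in Nfatc1+ cells and 1 (Krt27) in Shh+ cells. Over all genes tested, 16.6% were called toward Nfatc1+ cells and 14.9% toward Shh+ cells. With no filter on low values, Krt27, Krt28, Krt71 and Krt73 were not called (adjusted p from limma between 0.0508 and 0.185). Krt73 (chr15:101793308-101802346), a type II keratin of the inner root sheath cuticle, was at 12.4 and 8.24 FPKM in Nfatc1+ libraries and at 0.838 and 0.825 FPKM in Shh+ libraries. It was 12.4-fold higher in Nfatc1+ cells by mean FPKM (log2 fold change −3.00, SE 0.20, adjusted p = 0.00135), the largest change of a tested keratin at a pseudocount of 0.5, while at 0.1 Krt20 was at −3.54 and Krt73 at −3.46. Krt28 (chr11:99364872-99374903), a type I keratin of the sheath, was at 4.60 and 2.79 FPKM in Nfatc1+ libraries and at 0.699 and 0.788 FPKM in Shh+ libraries (log2 fold change −1.72, SE 0.22, adjusted p = 0.00751). For both, Nfatc1+ replicate 1 was the highest library and the Shh+ libraries were close to each other.

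Krt71 (chr15:101733949-101743109), a type II keratin of all layers of the sheath, was at 1.67 and 0.922 FPKM in Nfatc1+ libraries and at 0.323 and 0.223 FPKM in Shh+ libraries, or 39 and 20 fragments against 7 and 3. It was called higher in Nfatc1+ cells (log2 fold change −1.19, SE 0.22, adjusted p = 0.0207) but not without Shh+ replicate 1 (0.0723) or Shh+ replicate 2 (0.0935). Krt27 (chr11:99345565-99351104), of type I, went the other way, at 0.811 and 0.605 FPKM in Nfatc1+ libraries and 1.48 and 2.28 FPKM in Shh+ libraries (log2 fold change 0.96, SE 0.20, adjusted p = 0.0254), and was not called without Nfatc1+ replicate 1 (0.0646), Nfatc1+ replicate 2 (0.108) or Shh+ replicate 2 (0.0564). Krt25 had 11 and 1 fragments in Nfatc1+ libraries against 0 and 1 in Shh+ libraries, and it shared 8.61% of its windows with Krt27. Krt26, Krt72 and Krt74, which is annotated as a transcribed pseudogene in the mouse, were at or below 0.241 FPKM in every library. Other genes of the inner root sheath and hair cortex likewise moved both ways: of 9 tested, 5 were higher in Shh+ cells, among them Padi3 and Tgm1, and 3 in Nfatc1+ cells, among them Tchh (trichohyalin), which was at 2.66 and 1.82 FPKM against 0.950 and 1.16 FPKM. Over all genes tested these shares were 14.9% and 16.6%. Padi3 had an Nfatc1+ mean below 0.5 FPKM and was tested only because Shh+ cells were higher.

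The hard keratins of the hair shaft were low throughout. Of 15 in the table only 3 were tested, 4 (Krt36, Krt40, Krt82 and Krt86) were at 0 in all libraries, and their sum was 3.83 to 5.04 FPKM in a library. Krt35 (chr11:100092193-100096241), a type I keratin of the hair matrix and cuticle, was at 1.54 and 1.37 FPKM in Nfatc1+ libraries and at 0.238 and 0.192 FPKM in Shh+ libraries, or 28 and 23 fragments against 4 and 2 (log2 fold change −1.45, SE 0.09, adjusted p = 0.00112). Krt33a (chr11:100011195-100016212), a type I keratin of the hair cortex, was the reverse, at 0.113 and 0.0611 FPKM in Nfatc1+ libraries and 0.978 and 1.67 FPKM in Shh+ libraries, or 2 and 1 fragments against 16 and 17 (log2 fold change 1.61, SE 0.20, adjusted p = 0.00688). Neither gene overlapped between the groups, and Krt33a shared 19.3% of its windows with Krt34. Krt32, of the cuticle, was at 2.16 and 1.90 FPKM against 1.72 and 1.19 FPKM and was not called (log2 fold change −0.39, SE 0.16, adjusted p = 0.137). Krt85, the type II keratin of the hair matrix, was below the filter at 0.947 and 0.409 FPKM in Nfatc1+ libraries and 0.240 and 0.240 FPKM in Shh+ libraries. Krt33b had 0 fragments in both Nfatc1+ libraries and 3 and 2 in Shh+ libraries, and Krt31, Krt34, Krt39, Krt81, Krt83 and Krt84 stayed below 0.4 FPKM in every library.

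The 28 keratins that were not tested were all at 1.27 FPKM or less in every library. Of these, 23 were above 0 in at least 1 library, and Krt76 of the oral mucosa was at 0 in all, with the 4 hair shaft keratins above. Libraries of the groups did not overlap for 10, of which 5 (Krt4, Krt23, Krt33b, Krt78 and Krt222) were higher in Shh+ cells and 5 (Krt9, Krt24, Krt74, Krt75 and Krt85) in Nfatc1+ cells, mostly at a few fragments. That is 35.7% of the untested keratins, beside 16.4% of all 10611 untested genes. Genes at 0 in all libraries, which cannot separate, were 5 of the 28 untested keratins but 6269 of the 10611 untested genes. The shares are thus not on a like base. Krt4, a keratin of mucosal epithelium, had 1 and 1 fragments in Nfatc1+ libraries and 6 and 16 in Shh+ libraries, whereas its type I partner Krt13 was at or below 0.161 FPKM in every library. Krt42, a type I keratin of the nail that was assigned to no layer, had 9 and 21 fragments in Nfatc1+ libraries against 4 and 1 in Shh+ libraries, and was not called (log2 fold change −1.06, SE 0.31, adjusted p = 0.0664) but passed without Nfatc1+ replicate 1 (0.0204) and with an intensity trend (0.0482).

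The type II sum differed between the populations by more than the type I sum. Of 14 tested type I genes, 4 were higher in each population and 6 were not called, with a median log2 fold change of −0.17, and of 10 tested type II genes, 3 were called toward Shh+ cells, 6 toward Nfatc1+ cells and 1 was not called, with a median of −0.68. Over all genes tested the shares were 14.9% for Shh+ cells and 16.6% for Nfatc1+ cells, and the 6 type II calls were 4 without either Shh+ library and 2 with no filter on low values. With no filter, 977 of all 23361 genes were called higher in Nfatc1+ cells. Summed over all type I genes, FPKM was 5364 and 5161 in Nfatc1+ libraries and 4289 and 4012 in Shh+ libraries, a ratio of means of 0.789. Summed over all type II genes, it was 5121 and 5084 FPKM in Nfatc1+ libraries and 3155 and 3026 FPKM in Shh+ libraries, a ratio of 0.606. Both sums were lower in Shh+ libraries without overlap. The ratio of type II to type I transcripts was 0.955 and 0.985 in Nfatc1+ libraries, close to equal, and 0.736 and 0.754 in Shh+ libraries. The sums and ratios are given as values per library, with no test.

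A few genes made up these sums. Krt5, Krt17, Krt15, Krt14, Krt79, Krt10 and Krt1 held 98.82% to 99.03% of the keratin FPKM in every library, and all keratins together held 2.19% of the summed FPKM of all genes in both Nfatc1+ libraries and 1.56% and 1.47% in Shh+ libraries. Within the type II sum, Krt79 took 9.54% and 8.24% in Nfatc1+ libraries and 6.16% and 6.07% in Shh+ libraries, Krt5 took 84.4% and 84.9% in Nfatc1+ libraries and 77.4% and 79.8% in Shh+ libraries, and Krt1 took 4.50% and 5.24% against 14.2% and 12.0%. Within the type I sum, Krt15 took 34.8% and 34.3% in Nfatc1+ libraries and 19.8% and 19.8% in Shh+ libraries. Krt17 took 36.9% and 36.3% against 43.2% and 41.9%, Krt14 took 22.96% and 23.3% against 24.0% and 27.1%, and Krt10 took 4.87% and 5.65% against 12.6% and 10.8%. In Shh+ libraries the shares of Krt5, Krt15 and Krt79 were smaller and those of Krt1, Krt10, Krt14 and Krt17 larger, without overlap, while the levels of Krt14 and Krt17 themselves were slightly lower there and were not called.

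**Figure D3:**
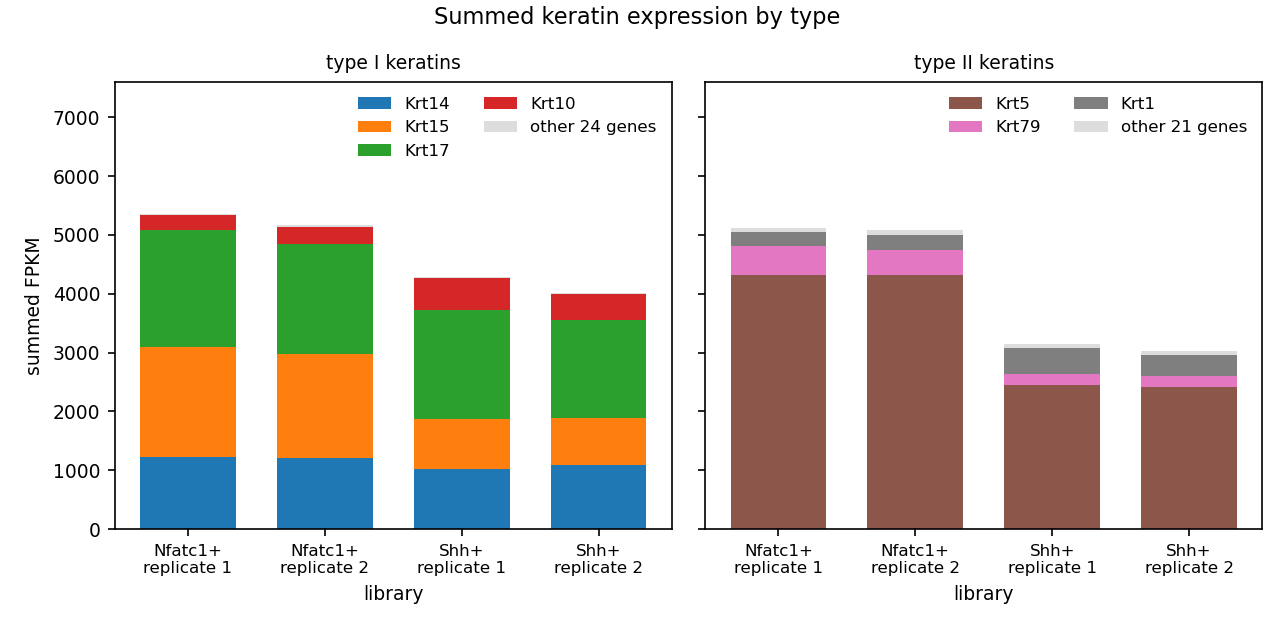
Summed FPKM of type I keratins (left) and type II keratins (right) in each of the 4 libraries, with the most abundant genes as coloured segments of the bars. The type II sum is 5121 and 5084 FPKM in Nfatc1+ libraries and 3155 and 3026 FPKM in Shh+ libraries, mostly Krt5, and the Krt15 segment is the part of the type I bars that shrinks most.

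The order of levels was alike at the top and differed below it. In Nfatc1+ cells it ran Krt5, Krt17, Krt15, Krt14, Krt79, Krt10, Krt1, Krt8, Krt80, Krt73, Krt7, Krt77, Krt18, Krt28, Krt32 and Krt16, and neighbours in this order were separated by both libraries except Krt10 and Krt1, Krt8 and Krt80, Krt7 and Krt77, and Krt32 and Krt16. In Shh+ cells it ran Krt5, Krt17, Krt14, Krt15, Krt10, Krt1, Krt79, Krt7, Krt8, Krt80, Krt77, Krt18, Krt16, Krt6a, Krt19 and Krt27, where Krt10 and Krt1, Krt7 and Krt8, Krt80 and Krt77, Krt16 and Krt6a, and Krt19 and Krt27 overlapped. Krt79 was above Krt1 and Krt10 in Nfatc1+ cells and below them in Shh+ cells, and Krt73 stood in the tenth place in Nfatc1+ cells and fell to rank 19 in Shh+ cells.

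Of 22 pairs of tested keratins that follow each other in a cluster, 7 were called in opposite directions, 5 in the same direction and 10 had at least 1 gene that was not called. On chromosome 11, Krt28 (higher in Nfatc1+ cells) lies between Krt27 and Krt10 (both higher in Shh+ cells), with 13767 bases to Krt27 and 10350 bases to Krt10. On chromosome 15, Krt6a (higher in Shh+ cells) and Krt5 (higher in Nfatc1+ cells) lie 12762 bases apart, Krt71 on the other side of Krt5 was also higher in Nfatc1+ cells, and Krt80 (higher in Nfatc1+ cells) is next to Krt7 (higher in Shh+ cells) across 40880 bases. The inner root sheath genes Krt71 and Krt73 stand near each other and were both higher in Nfatc1+ cells, with the barely detected Krt72 and Krt74 between them.

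**Figure D4:**
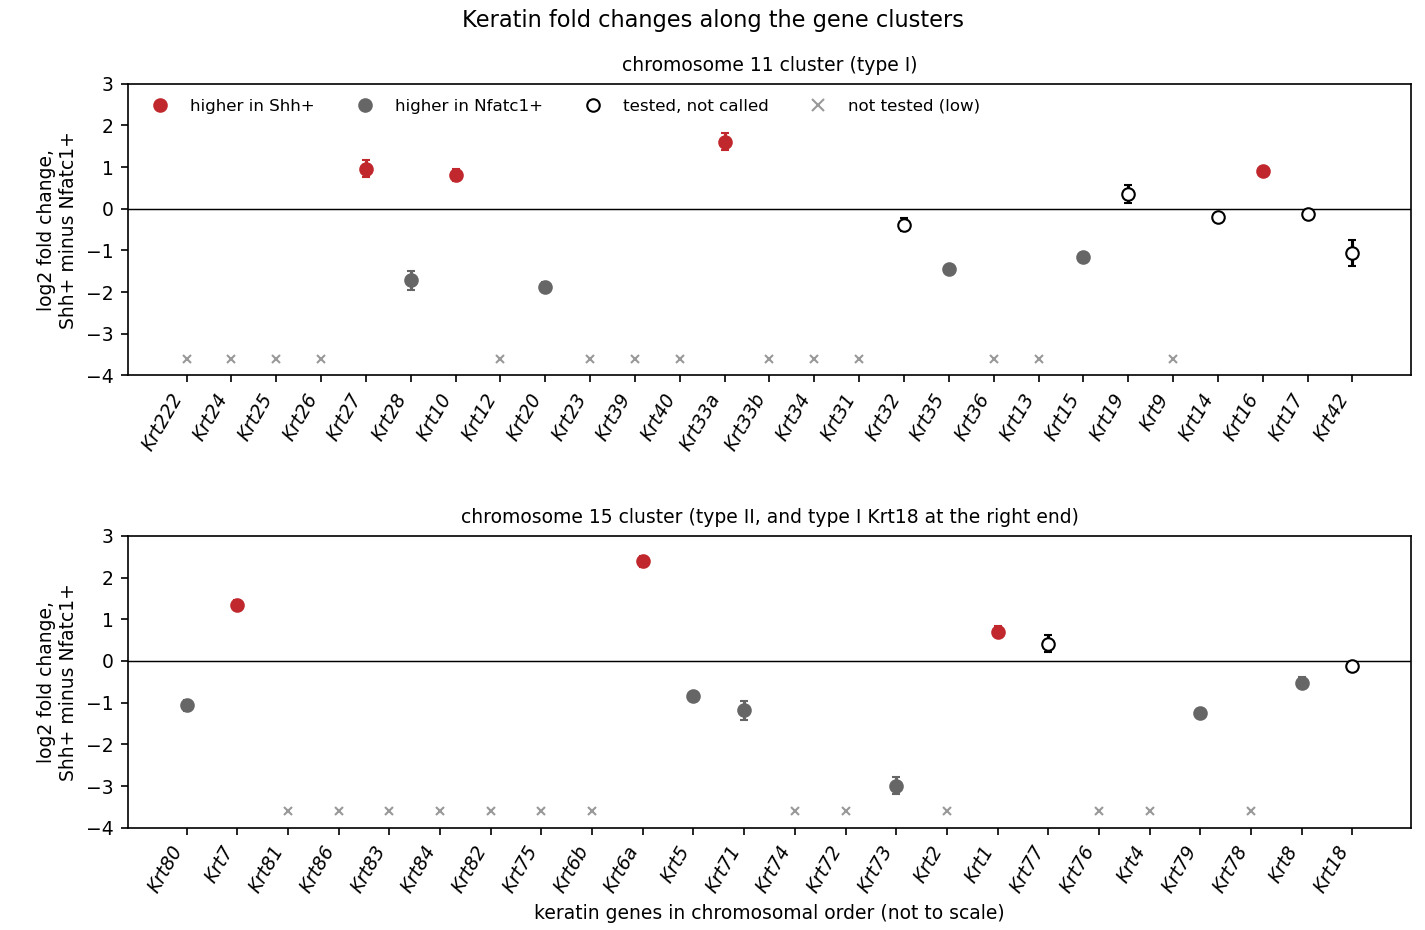
Log2 fold change (Shh+ minus Nfatc1+, with its SE) of each keratin in chromosomal order along the chromosome 11 cluster (top) and the chromosome 15 cluster (bottom), not to scale. Red points were called higher in Shh+ cells, grey points higher in Nfatc1+ cells, open points were not called and crosses were not tested. Krt27, Krt28 and Krt10 alternate in direction, and Krt73 at −3.00 and Krt6a at 2.39 are the extremes of the lower cluster.

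Among proteins that tie keratin filaments to cell junctions and bundle them, plakophilins and dystonin had the largest differences among the called genes. Of 17 tested linker genes, 4 were called toward Shh+ cells, 4 toward Nfatc1+ cells and 9 were not called, with a median log2 fold change of −0.07, and the shares over all genes tested were 14.9% and 16.6%. Plakophilins, which anchor filaments at desmosomes, were split. Pkp4 was at 33.2 and 34.8 FPKM in Nfatc1+ libraries and at 93.0 and 96.4 FPKM in Shh+ libraries (log2 fold change 1.47, adjusted p = 0.000808), and the scarce Pkp2 was at 0.315 and 0.374 FPKM against 2.11 and 1.31 FPKM (1.37, adjusted p = 0.0091). Pkp2 had an Nfatc1+ mean below 0.5 FPKM and was tested only because Shh+ cells were higher. Pkp1 was at 239 and 231 FPKM in Nfatc1+ libraries and at 107 and 116 FPKM in Shh+ libraries (−1.07, adjusted p = 0.0019). Dst (dystonin), whose epithelial form links Krt5 and Krt14 filaments to hemidesmosomes, was at 36.6 and 36.7 FPKM against 19.5 and 19.8 FPKM (−0.88, adjusted p = 0.00218).

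Of 28 tested transcription factors known to act on keratin genes or on the layers that express them, 9 were called toward Shh+ cells, 12 toward Nfatc1+ cells and 7 were not called, beside the same shares of 14.9% and 16.6% over all genes tested. Lef1, a mediator of Wnt signals, was at 8.55 and 7.80 FPKM in Nfatc1+ libraries and at 84.5 and 87.6 FPKM in Shh+ libraries (log2 fold change 3.32, adjusted p = 0.000386). Grhl3, a regulator of terminal epidermal differentiation, was at 5.09 and 4.01 FPKM against 26.9 and 27.5 FPKM (2.46, adjusted p = 0.000785), and Sox21, a factor of the hair shaft cuticle, was at 11.4 and 12.6 FPKM against 54.5 and 58.7 FPKM (2.19, adjusted p = 0.000609). Ehf, an epithelial factor of the Ets family, was higher in Nfatc1+ cells, at 8.93 and 9.03 FPKM against 1.65 and 1.17 FPKM (−2.33, adjusted p = 0.00108). For these factors, too, the groups did not overlap, and no relation between a factor and a keratin was computed over 4 libraries.

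Genes of other cell types that the sort could hold were listed beside the keratins. Over all genes tested, 14.9% were called toward Shh+ cells and 16.6% toward Nfatc1+ cells. Of 8 sebocyte genes tested, 6 were called, all toward Nfatc1+ cells, with sums of 151 to 166 FPKM against 67.7 to 84.2 FPKM, and Elovl3 was at 0 in both Shh+ libraries. Elovl3 and Pparg had a Shh+ mean below 0.5 FPKM and were tested only because Nfatc1+ cells were higher. Of 3 tested periderm genes, 2 were higher in Shh+ cells, with sums of 271 to 273 FPKM in Nfatc1+ libraries and 279.6 to 300.1 FPKM in Shh+ libraries, and Sprr1a was at 0 in both Nfatc1+ libraries. Sfn, which was not called, made up most of these sums, at 266 and 267 FPKM against 264 and 240 FPKM. The called genes were Cldn4, at 1.35 and 1.41 FPKM against 26.0 and 30.6 FPKM, and Rhov, at 3.05 and 4.21 FPKM against 8.81 and 7.40 FPKM. Melanocyte genes summed to 30.6 to 64.1 FPKM against 7.89 to 41.5 FPKM, with 1 of 8 higher in Nfatc1+ cells, and fibroblast genes summed to 289 to 558 FPKM against 549.6 to 609 FPKM, with 1 of 8, Dcn (decorin), higher in Shh+ cells. Dcn made the Shh+ sum the higher one, and without it fibroblast genes summed to 248 and 500.3 FPKM in Nfatc1+ libraries and to 223 and 184 FPKM in Shh+ libraries. Endothelial genes summed to at most 4.18 FPKM with none called of 3. Of 3 tested immune genes 1 was higher in Shh+ cells, Cd74, which made up most of the sum of 77.8 to 89.0 FPKM there, while Ptprc, carried by all leukocytes, was at or below 0.0555 FPKM and Cd207 was at 0 in every library. Of 11 immediate early genes, which tissue digestion can induce, 7 were called, all toward Nfatc1+ cells, with sums of 2673 to 2849 FPKM against 1229 to 1277 FPKM. The part of these cells and of the digestion in the keratin differences was not tested.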

How the data were processed

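RNA-seq of 4 libraries was used. Per the labels and the study's methods, the authors aligned reads with TopHat2 (v2.0.13) to the GRCm38 (mm10) mouse assembly and derived FPKM with Cufflinks (v2.2.1); HTSeq is also named in the submitters' processing notes. The deposited table holds FPKM for 23361 genes and no counts, so no count model was fitted. With pseudocount 0.5 and a minimum mean of 0.5 FPKM, log2 values of 12750 genes were compared with limma (v3.58.1, R v4.3.3), without an intensity trend, and p-values were adjusted by Benjamini-Hochberg over all of them, at a threshold of 0.05. The fit was tested on simulated data. Each keratin with a group mean of at least 1 FPKM is described by library, and of the linker, regulator and other filament lists the 4 called genes with the largest log2 fold changes are named. Members, layers and lists were chosen with earlier results of these data known. Positions are from GENCODE M21, and shared sequence is the share of 50-base windows of a transcript found in another gene's transcript. Alternatives covered pseudocount, filter, scaling, prior variance, call rule, replicate block and leaving out each library.

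The replicate numbers were not taken to pair libraries across groups, since the labels tie no number to an embryo, litter or day.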

Additional observations from a re-analysis of the deposited data

How the results depend on the processing

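Of the 24 tested keratins, 9 kept their direction and side of the threshold in every alternative that tested them. Of these, 4 were called (Krt6a, Krt15, Krt20 and Krt35) and 5 were not (Krt17, Krt18, Krt19, Krt32 and Krt77). At a mean of 2 FPKM, where 8 of the 24 dropped out, 4 of the 9 (Krt19, Krt20, Krt32 and Krt35) were not tested. Krt6a, Krt20 and Krt35 are also among the 6 keratins that were tested only because 1 group was higher. Krt5 and Krt16 were lost only where a call needed more than a 2-fold difference, since their log2 fold changes were −0.83 and 0.90. None of the 24 changed direction where it was tested. With no filter on low values 23361 genes were tested, and 3 keratins were called higher in Shh+ cells (2 of type I, 1 of type II) and 5 in Nfatc1+ cells (2 of type II), with a median log2 fold change of −0.0494. Calls fell over all genes too, to 751 toward Shh+ cells and 977 toward Nfatc1+ cells, from 1898 and 2111 of 12750 in the main fit. There Krt1, Krt7, Krt8, Krt10, Krt27, Krt28, Krt33a, Krt71, Krt73, Krt79 and Krt80 were not called (adjusted p from limma between 0.0506 and 0.211). With a filter at a mean of 2 FPKM, which tests fewer genes, 2 type I keratins were called in each direction and the median was −0.17. Of all 10931 genes tested there, 1772 were called toward Shh+ cells and 1952 toward Nfatc1+ cells. When a call needed p under 0.01 before adjustment and more than a 2-fold difference, 3 keratins were called toward Shh+ cells, 1 of them of type I. By this rule 591 of all 12750 genes were called toward Shh+ cells. Under quantile normalization the ratio of summed type II FPKM was 0.627, and Krt8 was not called (adjusted p = 0.0519), as with a pseudocount of 0.1 (0.059). For these, the cause was not tested. Leaving out 1 library at a time gave 4 to 6 keratins higher in Shh+ cells, 2 to 4 of them of type I, and medians from −0.32 to −0.22; the lone library of a group was then assumed to vary like the others. In each of these fits fewer of all genes were called as well, in both directions. With the replicate number as a block, 7 keratins were called toward Shh+ cells and 10 toward Nfatc1+ cells, with no call changed. Same-numbered libraries deviated together with r = 0.114 over 12750 genes, with 2 pairs only. Under the other scalings the median log2 fold change of all genes was −0.00877 and 0.0164. Low keratins are limited by depth: a library at 0 fragments can hold a few that were not sampled.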

Other observations

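Among the other cytoplasmic intermediate filament genes, 13 were in the table and 3 were tested. Vim (vimentin), the filament protein of mesenchymal cells, was higher in Nfatc1+ cells, at 81.8 and 105 FPKM against 56.1 and 61.9 FPKM in Shh+ libraries (log2 fold change −0.65, adjusted p = 0.0343 from limma). Nes (nestin), known from progenitor cells, was higher in Shh+ cells, at 7.73 and 5.69 FPKM against 3.14 and 3.43 FPKM (0.92, adjusted p = 0.0165). Synm (synemin), a large filament protein that binds vimentin, was also higher there, at 1.24 and 1.38 FPKM against 0.519 and 0.603 FPKM (0.77, adjusted p = 0.00535). The groups did not overlap for any of these 3 genes, and all of them were far below the abundant keratins in FPKM.

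The keratin-associated proteins, which crosslink hard keratins in the mature hair shaft, were nearly silent in all libraries. Of 52 Krtap genes in the table, 44 were at 0 in all 4 libraries and 2 were tested. Krtap17-1 was at 3.14 and 2.61 FPKM in Nfatc1+ libraries and at 2.47 and 1.24 FPKM in Shh+ libraries and was not called (log2 fold change −0.57, adjusted p = 0.191 from limma). Krtap10-10 was at 0.301 and 0.324 FPKM against 0.892 and 0.784 FPKM, higher in Shh+ cells (0.72, adjusted p = 0.00533). Its Nfatc1+ mean was below 0.5 FPKM, so that it was tested only because Shh+ cells were higher. Krtap8-1, below the filter and named after its values were seen, was at 0.616 and 0.661 FPKM in Nfatc1+ libraries and listed at 0 in both Shh+ libraries.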
